A study of Homo sapiens with 2 samples.

Results

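The transcripts described here are entries of the mitochondrial genome in RNA recovered by precipitation of DDX3X, a DEAD-box RNA helicase. They were chosen by transcript ID, with earlier results of these data known. The range was that of the UCSC Known Genes IDs from uc004cos to uc004coz. The hg19 release of that gene set places these IDs on the mitochondrial chromosome. The deposited tables held 6 such IDs. Of these, 5 were longer than 200 nt, by lengths recovered from the deposited values, and were kept, out of 68731 transcripts in all. The kept transcripts were uc004cos.3 (2554 nt), uc004cov.3 (1560 nt), uc004cox.3 (2308 nt), uc004coy.2 (1127 nt) and uc004coz.1 (573 nt). The sixth, uc004cow.1, was 31 nt long and was left out of the set.

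The study used the established human embryonic kidney line HEK293FT, labelled wild type and at rest and exposed to the solvent DMSO in full medium. They were irradiated on ice with 254 nm ultraviolet light in 3 exposures of 400 mJ/cm2, which crosslinks RNA to protein, and DDX3X was precipitated with a custom rabbit polyclonal antibody before sequencing (CLIP-seq). There were 2 replicate libraries of this 1 group, which summed to 19307022 and 11238842 counts for replicates 1 and 2, a ratio of 1.72. The labels do not say whether the replicates came from separate cultures, so differences between them may be technical. Thapsigargin-treated cells, input RNA and a control precipitation were not analysed here, so each level reflects both how abundant an RNA was and how well it was recovered.

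The mitochondrial genome is a small circle whose strands are both transcribed as long RNAs that span many genes. These are cut, largely at the tRNAs that lie between other genes, into ribosomal RNAs, tRNAs and messengers for subunits of the respiratory chain, and the messengers are translated on mitochondrial ribosomes inside the organelle. DDX3X is known mainly from the cytosol, where it unwinds RNA and acts in the start of translation, and the set was chosen as RNAs of a compartment apart from that helicase.

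The identity of the entries was examined first. RefSeq (assembly GRCh38.p14) lists 37 mitochondrial genes, of which 13 are protein-coding, 22 are tRNAs and 2 are ribosomal RNAs. It lists 0 of the 6 IDs as a gene synonym. In addition, 0 of the 6 had exactly the length of a single mitochondrial gene. The closest was uc004cov.3, at 1560 nt, which differed by 1 nt from the large ribosomal RNA gene RNR2 (1559 nt), and uc004coy.2 differed by 14 nt from CYTB (1141 nt). The other 4 differed by 28 nt or more from every mitochondrial gene. A near length does not identify an entry, and a small mismatch does not exclude a gene. Entry lengths were recovered from the deposited values, and a constant subtracted from every length was not tested. The longest mitochondrial gene in RefSeq is 1812 nt, and uc004cos.3 and uc004cox.3 were longer. The shortest is 59 nt, and uc004cow.1 was shorter. The 6 IDs occupied 6 adjacent rows of the deposited tables, although the rows are not sorted by ID. No gene name is therefore attached to any entry, and their place on the mitochondrial chromosome rests on the ID range alone. The submitters' processing notes name the build hg38, whereas the ID range refers to hg19. How reads on either strand, or reads that also match nuclear copies of mitochondrial sequence, were counted is not given in the sources used here.

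The 5 mitochondrial entries were recovered at very unequal levels, and uc004cos.3 carried most of the reads. In counts, uc004cos.3 had 19564 in replicate 1 and 9500 in replicate 2. As counts per 1000000 of all counts in the library (CPM), these were 1013 CPM (exact binomial 95% interval 999.2 to 1028) and 845.3 CPM (828.4 to 862.4), a mean of 929.3 ± 118.8 (SD, n = 2). Replicate 1 was the higher library and the counting intervals did not overlap. All intervals cover counting error only, since amplified copies of a fragment are not independent molecules. By mean CPM this entry ranked 24th of the 68731 transcripts and was the only one of the 5 among the 100 highest. Its neighbours in that order, uc010jls.2 and uc001yku.3, had 936.2 ± 112.1 and 911.7 ± 36.0 CPM (SD, n = 2), and neither differed from it by more than the replicate spread.

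The second entry, uc004cov.3, had 2051 and 1246 counts in replicates 1 and 2. This corresponds to 106.2 and 110.9 CPM, a mean of 108.5 ± 3.28 (SD, n = 2), with replicate 2 slightly the higher. It was the entry with the smallest relative spread between the libraries. For uc004cox.3, counts were 816 and 617, or 42.3 and 54.9 CPM, a mean of 48.6 ± 8.93 (SD, n = 2), and replicate 2 was again the higher. By contrast, uc004coy.2 was higher in replicate 1, with 702 and 311 counts, or 36.4 and 27.7 CPM, a mean of 32.0 ± 6.14 (SD, n = 2). The lowest entry was uc004coz.1, with 148 and 69 counts, or 7.67 and 6.14 CPM, a mean of 6.90 ± 1.08 (SD, n = 2). Its counting intervals, 6.48 to 9.00 CPM and 4.78 to 7.77 CPM, overlapped.

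**Figure D1:**
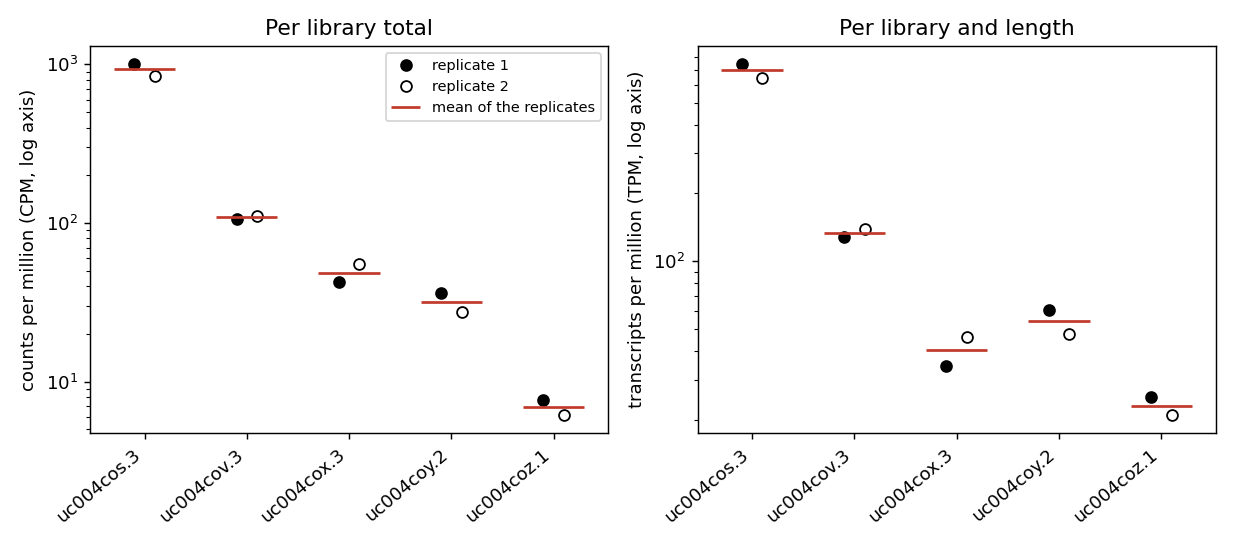
Level of the 5 mitochondrial entries in each library, as CPM on the left and as the deposited TPM on the right, both on log axes; filled points are replicate 1, open points replicate 2 and bars the mean of the 2. In both units uc004cos.3 lies highest and uc004coz.1 lowest, while uc004cox.3 and uc004coy.2 change places when length is taken into account.

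Levels of different transcripts were compared per length, in the deposited TPM, which divides counts by length and rescales to 1000000 per library. In this unit uc004cos.3 had 747.1 in replicate 1 and 645.0 in replicate 2, a mean of 696.0 ± 72.2 (SD, n = 2). The next entry, uc004cov.3, had 128.2 and 138.5 TPM, a mean of 133.4 ± 7.26 (SD, n = 2). Thus uc004cos.3 exceeded it 5.83-fold in replicate 1 and 4.66-fold in replicate 2, a gap far wider than the spread of either entry. The third by TPM was uc004coy.2, with 60.7 and 47.8 TPM and a mean of 54.3 ± 9.12 (SD, n = 2). It was followed by uc004cox.3, with 34.5 and 46.4 TPM and a mean of 40.4 ± 8.40 (SD, n = 2). These 2 neighbours differed 1.76-fold in replicate 1 but 1.03-fold in replicate 2, and the gap between their means, 13.9 TPM, was smaller than the sum of their SDs, so their order is not separated from the replicate spread. The lowest, uc004coz.1, had 25.2 and 20.9 TPM, a mean of 23.0 ± 3.05 (SD, n = 2). From highest to lowest the entries spanned 29.7-fold in replicate 1 and 30.9-fold in replicate 2. With 2 libraries on each side, the smallest p of a two-sided exact permutation test is 0.333, so the order is given as values without such a test.

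The length minimum bore on one entry. Just outside it, uc004cow.1 (31 nt) had 61 and 57 counts but 191.9 and 318.8 TPM, because division by so short a length turned few reads into a TPM above that of 4 of the 5 kept entries. The shortest entry inside it was uc004coz.1, at 573 nt. Before the ID range, the nearest ID in the tables was uc004coq.3, itself only 132 nt, with 450 and 216 counts. The next one before it, uc004cok.1, and the first one after the range, uc004cqp.2, had 0 counts in both libraries. The second one after, uc004cqs.1, had 273 and 141 counts.

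Together the 5 entries held 23281 counts in replicate 1 and 11743 in replicate 2. As a share of all counts, replicate 1 had 0.121% on them (exact binomial 95% interval 0.119 to 0.122%). The share in replicate 2 was 0.104% (0.103 to 0.106%). The mean was 0.113% ± 0.0114 (SD, n = 2). The share was higher in replicate 1 by more than the counting error. That difference lay with uc004cos.3. Without it, the other 4 entries held 0.0193% (0.0186 to 0.0199%) in replicate 1 and 0.0200% (0.0191 to 0.0208%) in replicate 2, and the intervals overlapped. As TPM, the 5 entries summed to 995.7 in replicate 1 and 898.5 in replicate 2. For scale, the 10 transcripts of highest mean CPM held 1.27% ± 0.191 (SD, n = 2) of the counts, and the 618 transcripts over 10000 nt held 2.12% ± 0.101 (SD, n = 2). In those 10, log2 ratios of replicate 1 over replicate 2 were nearly equal, with quartiles of 0.306 and 0.308. Whether the 10 share reads was not tested, so they may not be 10 separate RNAs.

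Within the set, reads did not follow length. The entry uc004cos.3 made up 31.4% of the summed length of 8122 nt but 84.0% of the set's counts in replicate 1 (exact binomial 95% interval 83.6 to 84.5%) and 80.9% in replicate 2 (80.2 to 81.6%). For uc004cov.3 the share of length was 19.2%, against 8.81% and 10.6% of the counts. The second-longest entry, uc004cox.3, had 28.4% of the length but 3.50% of the counts in replicate 1 (3.27 to 3.75%) and 5.25% in replicate 2 (4.86 to 5.67%). The last 2 entries, uc004coy.2 and uc004coz.1, had 13.9% and 7.05% of the length, against 3.02% and 0.636% of the counts in replicate 1 and 2.65% and 0.588% in replicate 2. In both libraries uc004cos.3 was the only one of the 5 whose share of the counts exceeded its share of the length. Whether entries overlap and share reads was not tested, since no coordinates were used here.

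**Figure D2:**
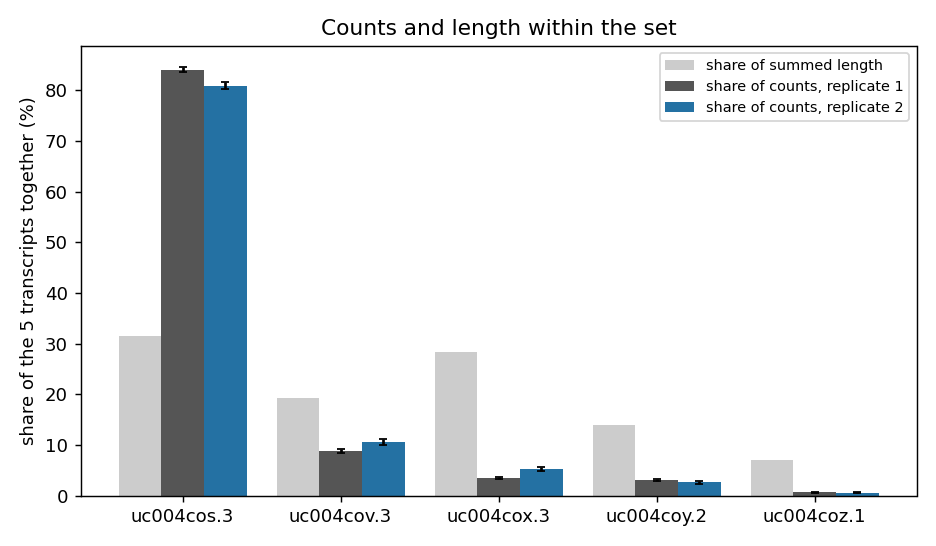
Share of the summed length (light grey) and of the set's counts in replicate 1 (dark grey) and replicate 2 (blue) for each of the 5 mitochondrial entries, in percent; whiskers are exact binomial 95% intervals for counting error. For uc004cos.3 the count bars reach 84.0% and 80.9% against 31.4% of the length, and for the other 4 entries both count bars lie below the length bar.

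The mitochondrial entries were next placed among the 46395 transcripts whose reads in both libraries together came to 10 or more, a number that includes all 5. The median of these was 8.97 CPM and 6.58 TPM. By CPM, 4 of the 5 entries lay above that median and uc004coz.1 lay below it, with 42.9% of transcripts lower. By TPM all 5 lay above. The mean TPM of uc004cos.3 was 105.8 times the median and exceeded 99.8% of the transcripts. That of uc004cov.3 exceeded 97.6%, uc004coy.2 92.9%, uc004cox.3 90.2% and uc004coz.1 81.8%. The median over the 5 entries was 54.3 TPM.

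Median TPM differed with length, from 39.2 in the 235 such transcripts of 200 nt or less to 4.14 in the 523 over 10000 nt, so the entries were also placed among transcripts of similar length. Among 23879 transcripts over 2000 and up to 5000 nt, uc004cos.3 exceeded 99.96% by TPM and uc004cox.3 exceeded 94.6%. Among 12652 transcripts over 1000 and up to 2000 nt, uc004cov.3 exceeded 96.7% and uc004coy.2 88.9%. The shortest kept entry, uc004coz.1, exceeded 56.7% of 2829 transcripts over 500 and up to 1000 nt and so lay near the middle of its class. These positions are descriptions of 2 libraries without an input, and they do not separate RNA crosslinked to DDX3X from RNA carried along in the precipitate.

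**Figure D3:**
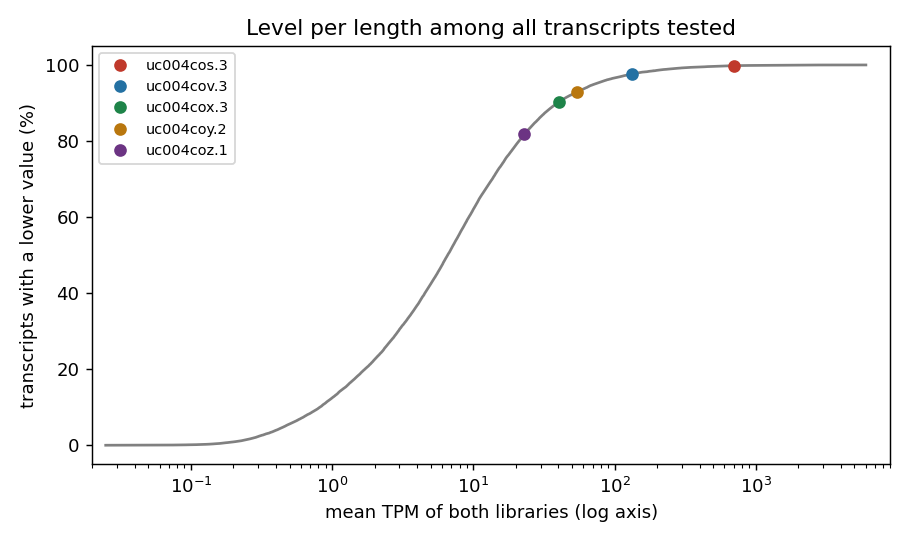
Share of the 46395 transcripts tested with a lower mean TPM (percent), against mean TPM of both libraries on a log axis; the grey line is all transcripts and coloured points are the 5 mitochondrial entries. The points lie on the upper part of the curve, from 81.8% for uc004coz.1 to 99.8% for uc004cos.3.

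The replicates were then compared entry by entry. The split of a transcript's reads between the libraries was set against the library-wide split with a two-sided exact binomial test and Benjamini-Hochberg adjustment over the 46395 transcripts, at a threshold of 0.05. This test compares 2 libraries with sampling noise and says nothing of conditions. Of the 5 mitochondrial entries, 3 departed from the library-wide split, against 48.6% of all transcripts tested. In the read range of each entry, the share was 85.8% for uc004cos.3, 62.2% for uc004cov.3 and 47.6% for uc004coz.1. It was 57.0% for uc004cox.3 and uc004coy.2, which fall in the same range. With only 5 entries, the set's share cannot be told apart from these backgrounds. Of the 3 entries, uc004cos.3 and uc004coy.2 were higher in replicate 1, where the share over all transcripts tested was 23.6%. The third, uc004cox.3, was higher in replicate 2, where that share was 25.0%.

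Replicate ratios are given as log2 of replicate 1 over replicate 2 after scaling to the library totals and adding 0.5 counts, with 95% intervals from the binomial split. The ratio of uc004cos.3 was 0.26 (0.23 to 0.30), with an adjusted p of 2.56e-45 in the exact binomial test. This entry had 29064 summed reads. Among the 155 transcripts at 10000 summed reads or more, 85.8% passed the same test and 22.6% had a larger ratio in either direction. For uc004coy.2 the ratio was 0.39 (0.20 to 0.59), with an adjusted p of 0.000244 in the exact test. The ratio of uc004cox.3 was -0.38 (-0.53 to -0.22), with an adjusted p of 8.75e-06 in the exact test. Both of these entries had between 1000 and 1999 summed reads, a range of 4772 transcripts whose ratios had an SD of 0.32. In that range 21.3% of transcripts had a larger ratio in either direction than uc004coy.2 and 23.6% a larger one than uc004cox.3.

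The remaining 2 entries did not pass the test. For uc004cov.3 the ratio was -0.06 (-0.16 to 0.04), with an adjusted p of 0.337 in the exact binomial test. For uc004coz.1, with only 217 summed reads, it was 0.31 (-0.10 to 0.75), with an adjusted p of 0.217 in the exact test. That interval holds 0 and also the ratios of uc004cos.3 and uc004coy.2. The dropped uc004cow.1 had a ratio of -0.68 (-1.23 to -0.14) and an adjusted p of 0.0288 in the exact test.

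Point ratios of the 5 mitochondrial entries did not share a direction, since 3 favoured replicate 1 and 2 favoured replicate 2. For uc004cov.3 and uc004coz.1 the interval held 0, so the direction is not established. Ratios of the 5 spanned 0.77 on the log2 scale, from uc004cox.3 to uc004coy.2. The intervals of these 2 entries lay on opposite sides of 0, but cover counting error only. The median ratio of the 5 was 0.26, that of uc004cos.3 itself, and without that entry it was 0.13. Over all transcripts tested the median was -0.01, with quartiles of -0.40 and 0.38, and all 5 ratios except the 0.39 of uc004coy.2 lay between them. Those quartiles pool all read numbers. Within the read range of each entry, the share of transcripts with a lower ratio was 81.3% for uc004cos.3 and 89.8% for uc004coy.2. It was 12.2% for uc004cox.3, 39.7% for uc004cov.3 and 71.3% for uc004coz.1. The spread seen among transcripts of similar read number, the entries themselves included, was then allowed for. With the binomial variance multiplied by the mean squared deviation of the read range, adjusted p values of the 5 entries ranged from 0.967 to 0.990, by a normal approximation to the exact binomial test. Under that setting 0 of all 46395 transcripts passed the adjusted threshold and 2230 had an unadjusted p under 0.05. That no entry passed is therefore not particular to this set.

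**Figure D4:**
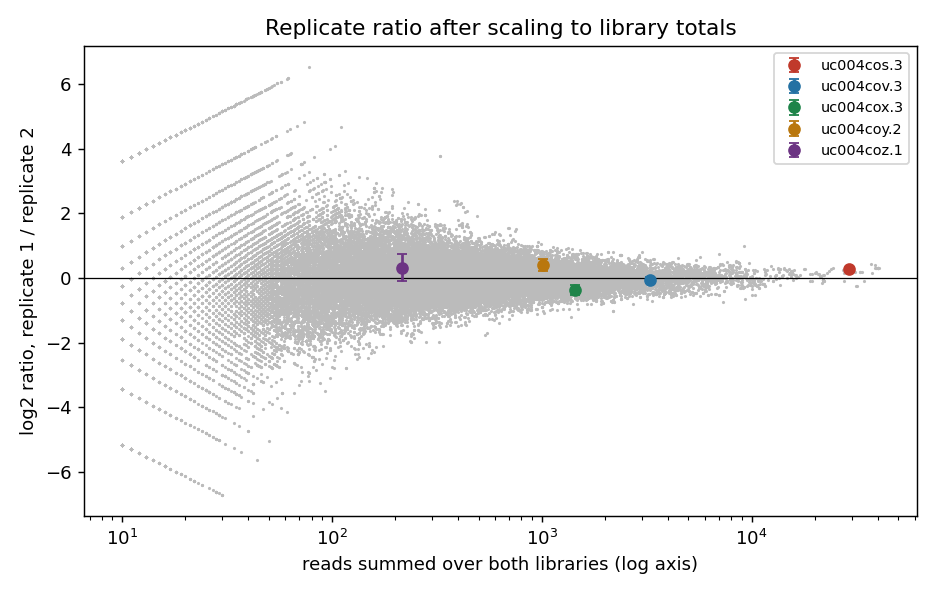
Log2 ratio of replicate 1 over replicate 2 against reads summed over both libraries (log axis) for the 46395 transcripts tested (grey) and the 5 mitochondrial entries (coloured, with 95% intervals from the binomial split). The coloured points lie on both sides of 0 and within the grey cloud, from -0.38 for uc004cox.3 to 0.39 for uc004coy.2.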

How the data were processed

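The authors deposited 2 tables, whole-number counts per transcript and TPM, with 1 column per library, and 0 further sample columns were present. The submitters' processing notes list cutadapt 4.1, STAR 2.7.0d and the build hg38. The counting program, the collapsing of duplicates and the handling of reads over several transcripts are not given in the sources used here. Equal counts on several IDs occurred, as for uc001xww.2, uc010twd.1 and uc010twe.1, with 1265 summed reads each. Of the transcripts tested, 10208 had counts within 10% of those of the ID before them in both libraries. Whether one read was counted on several transcripts was not tested, so shares of counts may not be shares of separate reads. Count divided by TPM was proportional to a whole number for all 57721 transcripts with reads (largest distance 5.1e-10), and these whole numbers were used as lengths. A constant subtracted from every length before deposit was not tested.

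Counts were scaled to library totals. The exact binomial tests were run in scipy 1.17.1 on all transcripts with at least 10 summed reads and were tested on simulated data. Those simulated data held binomial noise only, and not the wider spread between the 2 real libraries. TMM factors came from edgeR 4.0.16 and size factors from DESeq2 1.42.0, both as alternatives; with 1 group, neither offers a contrast. The members, tests and lists were chosen with earlier results of these data known. Every ID in the range was named, with the 2 nearest present IDs on each side and the nearest ranks of the highest entry. No sequence is shown, because no file used here pairs these IDs with one.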

Additional observations from a re-analysis of the deposited data

How the results depend on the processing

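The joint share of counts, 0.113%, was 0.0947% as a share of TPM and 0.157% with near-copies removed (1 kept wherever neighbouring IDs had counts within 10% of each other), which lowers the total. It ranged from 0.104% to 0.121% when 1 replicate was left out. Leaving out uc004cos.3 gave 0.0196% and adding the adjacent table row uc011mfi.1 gave 0.124%, both chosen after seeing the data. The number of entries split unevenly stayed at 3 of 5 under TMM, DESeq2 size factors and totals without the 100 highest transcripts. Over all 46395 transcripts, 22574, 22613 and 22561 were called under these settings. It was also 3 of 5 with no filter, a minimum of 50 reads and near-copies removed. Over all transcripts these gave 22545 of 57721, 19372 of 39014 and 17573 of 36187. With only 5 entries, the 3 cannot be told apart from these backgrounds. The number was 4 of 6 with no length minimum, 2 of 4 without uc004cos.3 and 0 of 5 with the multiplied variance. That variance is estimated from the same 2 libraries. The median log2 ratio, 0.26, was 0.10 with no length minimum, 0.21 relative to transcripts of the same length class and 0.13 without uc004cos.3. The 5 single ratios kept their sign in the 20 values recomputed with another scaling or pseudocount, and their side of the threshold in the 10 with another scaling. The pseudocount does not enter the test. Under the multiplied variance, which leaves the ratios as they are, the 3 called entries no longer passed, and neither did any other transcript tested. No paired analysis was possible because both libraries belong to the same and only group. Depth limits uc004coz.1 most, at 217 summed reads.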

Other observations

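The row directly before the 6 mitochondrial IDs in the deposited tables was uc011mfi.1 (1327 nt), which lies outside the ID range and was singled out after its values were seen. It had 2314 counts in replicate 1 and 1314 in replicate 2, or 170.1 and 171.7 TPM, a mean of 170.9 ± 1.15 (SD, n = 2). By TPM it would stand second among the mitochondrial entries, between uc004cos.3 and uc004cov.3, and its log2 replicate ratio was 0.04. The row before it, uc003gcl.1, had 0 counts in both libraries, and the first row after the 6, uc004auu.2, had 0 and 2 counts. Whether uc011mfi.1 is a mitochondrial entry was not tested.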
